A study of Mus musculus with 6 samples.

Results

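The collagen genes are the mouse genes whose symbol has the form Col, a type number, the letter a and a chain number. Symbols were assigned by NCBI Gene ID, and 44 of the 45679 gene symbols in the files met this rule. They were divided by the kind of structure they build into 11 fibrillar, 6 basement membrane (type IV) and 27 other collagen genes. Of the 44, 35 passed the filter on low values (TPM 1 or higher in 2 or more libraries) and were tested: 9 fibrillar, 6 basement membrane and 20 others.

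Collagens are secreted proteins whose chains wind around each other into a stiff helix, and each gene encodes a chain. Fibrillar collagens make the tensile fibres of the ovarian stroma and of the theca layers. Type IV collagen forms the sheet on which granulosa cells, vessels and the surface epithelium rest, and beaded, fibril-associated and multiplexin collagens link fibres, cells and sheets. Collagen fibres are known to accumulate in the ovary with age.

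Messenger RNA was sequenced from whole ovaries of wild-type BDF1 mice, a hybrid laboratory strain. The 6 libraries carry labels for 3 groups of 2: old mice (65 weeks) that received MIT-001, a compound that neutralises reactive oxygen species in mitochondria (0.5 mg/kg, injected into the abdomen for 7 days), old mice (65 weeks) that received PBS, and young mice (8 weeks) that received PBS. Which animals, or how many, went into a library is not stated, so every p-value measures the spread between these libraries, which may be technical. Levels are in TPM, which is scaled for transcript length and library and so can be compared between genes.

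The number of genes with TPM 1 or higher was 14347 to 16340 per library, and aligned sequence came to 6.33 to 7.14 gigabases per library, so depth was similar. Ovary-defining genes were present in all libraries, but their levels went against the age labels. The 9 oocyte markers summed to 78.0 and 38.2 TPM in both libraries labelled old MIT-001, 414 and 433 TPM in those labelled old PBS, and 274 and 32.7 TPM in those labelled young PBS. The 9 granulosa markers summed to 1964 and 2994, to 5549 and 6890 (labelled old PBS), and to 2654 and 2673 TPM (labelled young PBS). Of the defining markers, the oocyte growth factor gene Gdf9 was at 22.8 and 9.35, at 116 and 108 (labelled old PBS), and at 73.3 and 9.51 TPM (labelled young PBS). Amh, a hormone gene of growing follicles, was at 50.1 and 80.6, at 123 and 213 (labelled old PBS), and at 95.0 and 40.1 TPM (labelled young PBS). Groups are therefore named as labelled, and each direction below holds for the libraries as labelled. In whole tissue, fewer cells of a type and less RNA per cell cannot be told apart.

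A pair of type IV genes can share a promoter. Col4a1 and Col4a2, the main type IV chains, start 21 bases apart on opposite strands of chromosome 8, and Col4a5 and Col4a6 start 1343 bases apart on opposite strands of the X chromosome. Their promoter windows (250 bases before to 50 after the start, 5′ to 3′, RefSeq, GRCm38.p6) are shown because the levels of these pairs are compared below. The windows are chr8:11312777-11313076 on the minus strand for Col4a1, chr8:11312555-11312854 on the plus strand for Col4a2, chrX:141475169-141475468 on the plus strand for Col4a5 and chrX:141474027-141474326 on the minus strand for Col4a6. Capitals mark CCAAT and GGGCGG on either strand.
Col4a1: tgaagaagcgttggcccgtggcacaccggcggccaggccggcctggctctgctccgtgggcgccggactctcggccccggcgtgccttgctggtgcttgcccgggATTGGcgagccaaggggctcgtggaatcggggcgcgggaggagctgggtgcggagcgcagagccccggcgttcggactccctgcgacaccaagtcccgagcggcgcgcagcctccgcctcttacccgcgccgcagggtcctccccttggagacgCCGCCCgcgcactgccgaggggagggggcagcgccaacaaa
Col4a2: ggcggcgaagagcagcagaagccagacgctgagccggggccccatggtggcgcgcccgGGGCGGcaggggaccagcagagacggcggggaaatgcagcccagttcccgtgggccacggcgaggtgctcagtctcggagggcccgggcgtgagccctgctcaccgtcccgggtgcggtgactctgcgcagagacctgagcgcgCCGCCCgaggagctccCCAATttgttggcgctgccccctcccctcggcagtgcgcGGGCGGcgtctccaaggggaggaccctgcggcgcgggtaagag
Col4a5: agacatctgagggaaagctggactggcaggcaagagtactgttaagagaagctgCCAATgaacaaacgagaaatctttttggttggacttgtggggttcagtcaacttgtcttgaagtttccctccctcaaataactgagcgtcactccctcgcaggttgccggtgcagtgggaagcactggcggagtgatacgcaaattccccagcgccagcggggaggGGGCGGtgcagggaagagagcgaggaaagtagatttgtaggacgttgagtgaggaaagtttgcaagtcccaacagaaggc
Col4a6: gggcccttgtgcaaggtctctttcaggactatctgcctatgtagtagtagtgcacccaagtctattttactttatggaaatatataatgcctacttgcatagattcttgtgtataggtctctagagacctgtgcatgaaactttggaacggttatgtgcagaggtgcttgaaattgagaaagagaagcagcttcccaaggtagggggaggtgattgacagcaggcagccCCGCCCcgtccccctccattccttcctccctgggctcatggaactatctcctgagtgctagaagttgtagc
The windows of Col4a1 and Col4a2 overlap by 78 bases. CCAAT occurred once in each of the Col4a1, Col4a2 and Col4a5 windows, and GGGCGG occurred 3 times in that of Col4a2 and once in each of the others. The GGGCGG match of the Col4a1 window lies in the overlap and is the same site as the last one marked for Col4a2. Over all 32851 promoter windows of this length, 37.4% held CCAAT and 35.7% held GGGCGG. Among 38 windows that matched 35 collagen genes, the shares were 34.2% and 60.5%. A match describes letters in the window only.

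Collagen genes made up 0.300% and 0.313% of all TPM in both libraries labelled old MIT-001, 0.334% and 0.280% in those labelled old PBS, and 0.204% and 0.447% in those labelled young PBS. The summed level was 3000 and 3135 TPM in both libraries labelled old MIT-001, 3341 and 2796 TPM in those labelled old PBS, and 2040 and 4467 TPM in those labelled young PBS. The 7 theca and interstitial markers summed to 24450 and 23199, to 34709 and 32598 (labelled old PBS), and to 20914 and 40693 TPM (labelled young PBS). This sum too was lowest and highest in the pair labelled young PBS. Among the defining markers, Cyp11a1 was also lowest and highest in that pair, at 9021 and 20654 TPM. Cyp17a1 was highest in old PBS, at 490 and 673 TPM, with 81.9 and 336 in old MIT-001 and 38.4 and 165 in young PBS. Within the young PBS pair, fibroblast, smooth muscle and endothelial sums (given below) were lower in replicate 2, and epithelial and oviduct sums were higher. The part of these cell types in the collagen sums was not tested. For the collagen sum, the 2 libraries labelled young PBS were the lowest and the highest of the 6, and the other 4 lay between them. The mean sums were 3068 ± 386 TPM in old PBS and 3253 ± 1716 TPM in young PBS (SD, n = 2 each), a fold of 0.943. This fold was 1.504 without replicate 2 labelled young PBS and 0.687 without replicate 1. For old MIT-001, with 3067 ± 95.5 TPM (SD, n = 2), the fold was 1.00 against old PBS and 0.943 against young PBS. All 3 differences had an exact two-sided permutation p of 1.0, where 0.333 is the smallest that 2 against 2 libraries can give.

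By class, the 11 fibrillar genes summed to 1125 and 1451 TPM in both libraries labelled old MIT-001, 1306 and 1126 TPM in those labelled old PBS, and 722 and 1265 TPM in those labelled young PBS. The 6 type IV genes summed to 682 and 671, to 1084 and 860 (labelled old PBS), and to 568 and 1066 TPM (labelled young PBS). The fold of this class was 0.696 for old MIT-001 against old PBS, whose libraries did not overlap (exact permutation p = 0.333, the smallest possible). The 27 other genes summed to 1193 and 1012, to 951 and 809 (labelled old PBS), and to 750 and 2135 TPM (labelled young PBS), a fold of 1.25 for old MIT-001 against old PBS, also without overlap (exact permutation p = 0.333). Replicate 2 labelled young PBS held 47.8% of its collagen TPM in the other class, against 28.5% to 39.8% in the remaining 5 libraries.

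**Figure D1:**
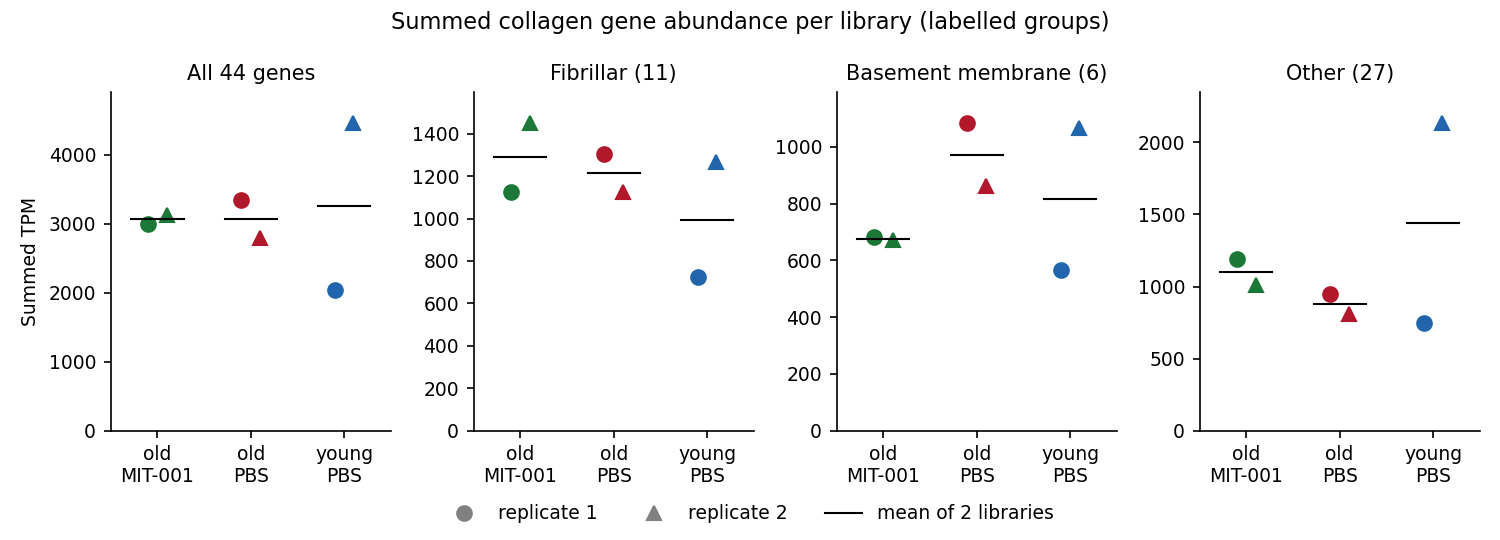
Summed TPM of all collagen genes and of each class (vertical axes) in the 6 libraries by labelled group (horizontal axes). Circles and triangles are replicates 1 and 2 and lines are group means. The libraries labelled young PBS lie at both ends for all genes together, at 2040 and 4467 TPM.

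None of the 35 tested collagen genes was called by limma in any of the 3 comparisons (adjusted p below 0.05 over 16473 genes). Over all genes, 0.0364% were called for old PBS against young PBS, 0.0182% for old MIT-001 against old PBS and 0% when old MIT-001 was set against young PBS. The smallest adjusted p of a collagen gene was 0.210, 0.184 and 0.161 in these comparisons. At an unadjusted p below 0.05, 4 of 35 collagen genes stood out for old PBS against young PBS (11.4%, against 18.1% of all genes tested): Col4a3, Col11a1 and Col9a2 were higher (14.6% of all genes) and Col6a5 lower (3.55%). With old MIT-001 against old PBS there were 5 of 35 (14.3%, against 11.8%): Col8a2, Col6a5, Col12a1 and Col8a1 were higher (7.45% of all genes) and Col9a2 lower (4.36%). With old MIT-001 against young PBS there were 4 of 35 (11.4%, against 17.9%), Col4a3, Col8a1, Col12a1 and Col4a4, all higher (17.1%, with 0.813% lower). These shares lie near or under those of all genes.

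The libraries labelled young PBS differed most between replicates. The median absolute difference between replicates over the 35 genes was 0.365 for old MIT-001, 0.344 for old PBS and 0.887 for young PBS on the log2(TPM + 1) scale. Over all genes tested the same medians were 0.236, 0.229 and 0.516. Marker sums also differed within this pair. The 7 adipocyte markers summed to 295 TPM in replicate 1 labelled young PBS and to 31.8 TPM in replicate 2, with 28.3 to 50.7 TPM in the remaining 4 libraries. The defining adipocyte markers went opposite ways within this pair. Adipoq was at 21.5 TPM in replicate 1 and 1.05 TPM in replicate 2, and Plin1 at 9.16 and 19.2 TPM. The 8 smooth muscle markers summed to 1967 TPM in replicate 1 and 979 TPM in replicate 2 labelled young PBS. That sum also differed within the other pairs. It was 2754 and 1000 TPM in the libraries labelled old MIT-001, and 1060 and 675 TPM in those labelled old PBS. Their part in the collagen values was not tested. Replicate 2 labelled young PBS was above replicate 1 in 26 of 35 collagen genes, and 44.6% of all genes tested lay that way. Without replicate 1 labelled young PBS, limma called 5 collagen genes lower in old PBS than in young PBS: Col15a1, Col4a6, Col6a1, Col6a2 and Col6a5. The same fit called 948 of all 16473 genes (5.75%). Without replicate 2 it called 0 collagen genes and 14 of all genes (0.085%).

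**Figure D2:**
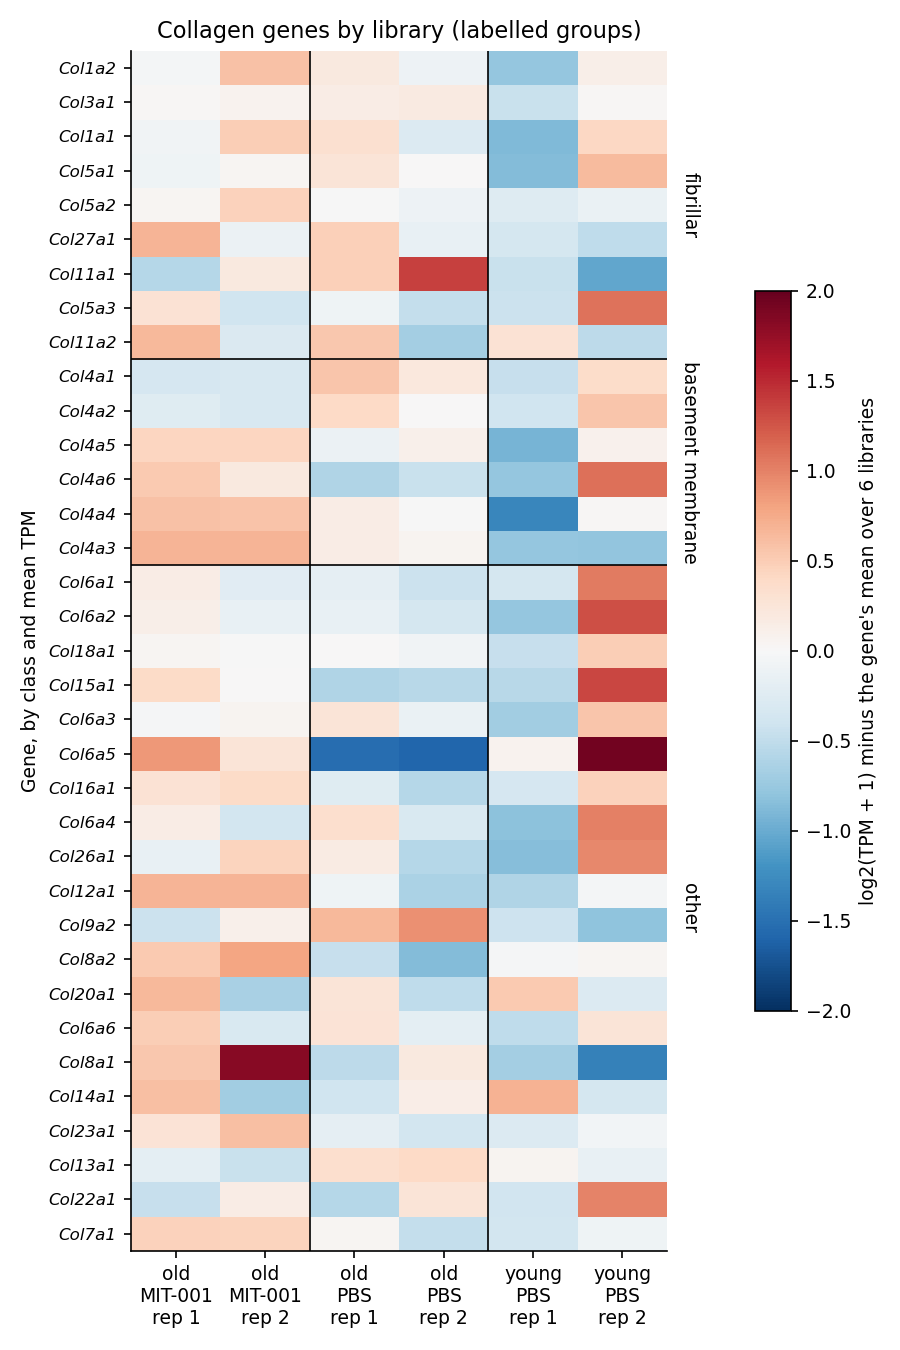
Log2(TPM + 1) of the 35 tested collagen genes (rows, by class and mean level) in the 6 libraries (columns), each minus the gene's mean over the libraries; red is above and blue below that mean. Blue prevails in replicate 1 labelled young PBS, which was the lowest of the 6 libraries in 16 of 35 genes (45.7%, against 28.9% of all genes tested). Replicate 2 was the highest in 14 (40%, against 17.6%), and over all genes tested it was the lowest in 39.4%.

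Among the fibrillar genes, the main chains of the stroma were abundant, and those of type I overlapped between all groups. Col1a1, which with Col1a2 encodes type I collagen, was at 206 and 305 TPM in both libraries labelled old MIT-001, 273 and 180.4 TPM in those labelled old PBS, and 117 and 289 TPM in those labelled young PBS. Col1a2 was at 387 and 597, at 456 and 368 (labelled old PBS), and at 232 and 430.2 TPM (labelled young PBS). Col1a2 exceeded Col1a1 in every library, by 1.49 to 2.04 times.

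Col3a1, the type III chain of pliable fibres, was at 414 and 425 TPM in both libraries labelled old MIT-001, 448 and 461 TPM in those labelled old PBS, and 297 and 411 TPM in those labelled young PBS. The groups did not overlap, with old PBS highest and young PBS lowest, but the margins were small. Type V collagen sets fibril width, and its chain gene Col5a1 was at 46.2 and 50.9, at 59.5 and 49.8 (labelled old PBS), and at 26.6 and 77.4 TPM (labelled young PBS). Col5a2 was at 35.2 and 47.6 TPM in both libraries labelled old MIT-001, 34.1 and 31.6 TPM in those labelled old PBS, and 28.3 and 30.9 TPM in those labelled young PBS, with no overlap between groups. The log2 fold change (± SE) was 0.31 ± 0.23 for old MIT-001 against old PBS (limma, adjusted p 0.720) and 0.46 ± 0.23 against young PBS (limma, adjusted p 0.365).

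Col11a1 was the fibrillar gene with the smallest p in both comparisons that involve old PBS. It encodes a chain of type XI collagen, which seeds thin fibrils and is best known from cartilage. Its level was 4.19 and 7.86 TPM in both libraries labelled old MIT-001, 9.71 and 18.8 TPM in those labelled old PBS, and 4.67 and 2.76 TPM in those labelled young PBS. Both libraries labelled old PBS stood above the other 4. The log2 fold change was 1.66 ± 0.46 for old PBS against young PBS (limma, adjusted p 0.223) and -1.10 ± 0.46 for old MIT-001 against old PBS (limma, adjusted p 0.426). Col27a1, a fibrillar chain of developing cartilage, was at 21.0 and 11.7, at 18.1 and 11.4 (labelled old PBS), and at 9.79 and 8.65 TPM (labelled young PBS). Its log2 fold change was 0.59 ± 0.37 for old PBS and 0.71 ± 0.37 for old MIT-001, each against young PBS (limma, adjusted p 0.438 and 0.387).

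The remaining fibrillar genes were low. Col5a3 ranged from 3.87 to 13.4 TPM and Col11a2 from 0.448 to 2.65 TPM over the 6 libraries. Col24a1 and Col2a1 did not pass the filter, with highest values of 1.18 and 0.0340 TPM. Of the 9 fibrillar genes tested, 8 had a log2 fold change above 0 for old PBS against young PBS (median 0.27, against 0.23 over all genes). Against old PBS, old MIT-001 had 6 of 9 above 0 (median 0.18, against 0.03), and against young PBS 8 of 9 (median 0.44, against 0.24). Over all genes tested, 68.1%, 53.5% and 69.3% lay above 0 in these comparisons. For old PBS against young PBS, the values of Col1a1, Col1a2, Col5a1 and Col11a2 fell below 0 when a library was left out. Their lowest log2 fold changes were then -0.38, -0.07, -0.50 and -0.57.

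None of the 6 type IV genes was called. Their levels were ordered differently across the groups from chain to chain, and the difference between chains was not tested. Col4a1 had the highest mean of all collagen genes, 473 TPM, with 360.3 and 367 TPM in both libraries labelled old MIT-001, 668 and 526 TPM in those labelled old PBS, and 331 and 586 TPM in those labelled young PBS. Col4a2 followed it, at 227 and 215, at 356 and 270.2 (labelled old PBS), and at 204 and 396 TPM (labelled young PBS). For both genes the libraries labelled old MIT-001 lay below those labelled old PBS without overlap, and the libraries labelled young PBS overlapped with both. The 9 endothelial markers summed to 408 and 321 TPM in both libraries labelled old MIT-001, 517 and 464 TPM in those labelled old PBS, and 491 and 388 TPM in those labelled young PBS, so they too were lower in old MIT-001 than in old PBS without overlap. Among them Cdh5, a junction gene of vessels, had a log2 fold change of -0.75 ± 0.19 and Pecam1 -0.65 ± 0.22 in that comparison (limma, adjusted p 0.228 and 0.342). The granulosa, theca and oocyte marker sums given above were also lower in old MIT-001 than in old PBS without overlap. Several other marker sums, given below, went the other way. Between the libraries labelled young PBS, the endothelial sum was lower in replicate 2, whereas Col4a1 and Col4a2 were higher there. The part of these cell types in the type IV values was not tested. The log2 fold change of Col4a1 was -0.70 ± 0.33 for old MIT-001 against old PBS (limma, adjusted p 0.481).

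Col4a3, Col4a4 and Col4a5 encode the chains known from the filtration membrane of the kidney. Col4a3 was at 4.49 and 4.52 TPM in both libraries labelled old MIT-001, 2.79 and 2.58 TPM in those labelled old PBS, and 1.00 and 0.996 TPM in those labelled young PBS. The groups were fully separated and replicates nearly equal. Its log2 fold change was 1.46 ± 0.28 for old MIT-001 against young PBS (limma, adjusted p 0.161), 0.58 ± 0.28 against old PBS (limma, adjusted p 0.505), and 0.88 ± 0.28 for old PBS against young PBS (limma, adjusted p 0.227).

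Col4a4 was at 22.7 and 22.5 TPM in both libraries labelled old MIT-001, 16.5 and 14.7 TPM in those labelled old PBS, and 5.41 and 15.0 TPM in those labelled young PBS. Its log2 fold change was 1.22 ± 0.44 for old MIT-001 and 0.71 ± 0.44 for old PBS, each against young PBS (limma, adjusted p 0.225 and 0.434). The value for old PBS was 0.05 without replicate 1 labelled young PBS and 1.37 without replicate 2. Col4a5 was at 45.3 and 45.6, at 30.9 and 35.8 (labelled old PBS), and at 17.2 and 35.8 TPM (labelled young PBS). For both genes the libraries labelled old MIT-001 stood above the other 4. Col4a6, found with Col4a5 in the sheet around smooth muscle, was at 21.7 and 17.0 TPM in both libraries labelled old MIT-001, 9.36 and 10.5 TPM in those labelled old PBS, and 8.17 and 32.7 TPM in those labelled young PBS.

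Shares within type IV do not depend on how a library was scaled. Col4a3, Col4a4 and Col4a5 together made up 10.6% and 10.8% of type IV TPM in both libraries labelled old MIT-001, 4.63% and 6.18% in those labelled old PBS, and 4.16% and 4.86% in those labelled young PBS. The libraries labelled old MIT-001 stood apart, while old PBS and young PBS overlapped. Col4a6 added 3.18% and 2.54%, then 0.863% and 1.22% (labelled old PBS), then 1.44% and 3.06% (labelled young PBS). These shares were chosen after the values were seen and are given as a description. In no comparison was their exact two-sided permutation p below 0.333, the smallest possible.

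The ratio of Col4a2 to Col4a1 stayed between 0.513 and 0.676 over the 6 libraries, and that of Col4a6 to Col4a5 ranged from 0.292 to 0.913. Col4a3 and Col4a4 also lie head to head, on chromosome 1, and Col4a4 exceeded Col4a3 by 4.99 to 5.90 times in 5 libraries but by 15.1 times in replicate 2 labelled young PBS. In the files the transcribed regions of Col4a1 and Col4a2 share 85 bases and those of Col4a3 and Col4a4 share 114 bases on opposite strands. No strand setting is given in the sources used here, so reads from those bases cannot be told apart.

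**Figure D3:**
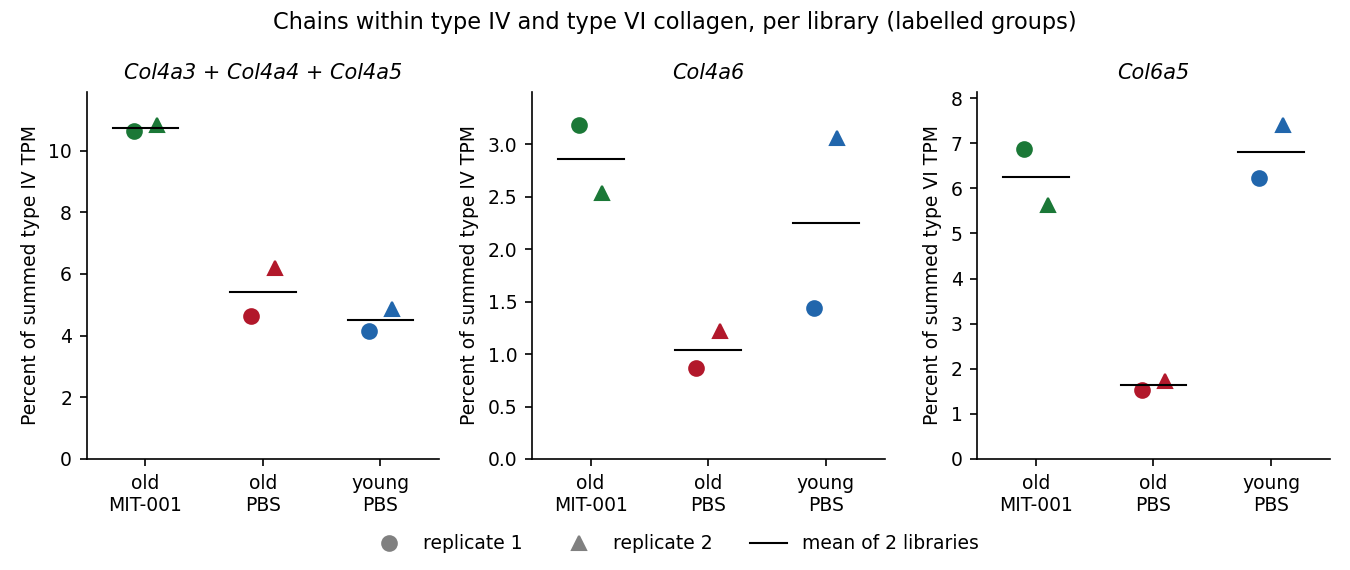
Percent of summed type IV TPM in Col4a3, Col4a4 and Col4a5 together and in Col4a6, and percent of summed type VI TPM in Col6a5 (vertical axes), in the 6 libraries by labelled group. Circles and triangles are replicates 1 and 2 and lines are group means; the libraries labelled old MIT-001 hold 10.6% and 10.8% in the first panel, and those labelled old PBS hold 1.52% and 1.74% in the last.

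Marker sums of other cell types differed between the groups in several orders. The 9 surface epithelium markers summed to 641 and 670 TPM in both libraries labelled old MIT-001, 168 and 162 TPM in those labelled old PBS, and 253 and 361 TPM in those labelled young PBS. The 8 oviduct and ciliated markers summed to 755 and 467, to 35.8 and 41.8 (labelled old PBS), and to 115 and 197 TPM (labelled young PBS). The defining markers of this list differed. Pax8 was at 27.9 and 18.3, at 0.585 and 0.178 (labelled old PBS), and at 7.06 and 1.95 TPM (labelled young PBS). Foxj1 was at 0.867 and 67.0, at 1.40 and 1.07 (labelled old PBS), and at 4.08 and 3.08 TPM (labelled young PBS). Replicate 1 labelled old MIT-001 was thus the lowest library for Foxj1. The 10 stromal fibroblast markers summed to 1585 and 1041 TPM in both libraries labelled old MIT-001, 720.2 and 840 TPM in those labelled old PBS, and 950 and 890 TPM in those labelled young PBS. The 9 macrophage markers summed to 746 and 586, to 213 and 293 (labelled old PBS), and to 1229 and 1175 TPM (labelled young PBS). The epithelial, oviduct and fibroblast sums were highest in both libraries labelled old MIT-001, whereas the macrophage sum was highest in those labelled young PBS. For old MIT-001 against old PBS, limma called 1 of the 9 surface epithelium markers and 0 of the other 3 lists. Over all genes tested, 0.0182% were called. At an unadjusted p below 0.05, 9 of 9 epithelial and 5 of 7 oviduct markers tested were higher. So were 3 of 10 fibroblast and 7 of 9 macrophage markers, against 7.45% of all genes tested. Lower at that threshold were 1 fibroblast marker and 4.36% of all genes tested. No marker of these lists was at 0 in both libraries of a group. Their part in the collagen values was not tested.

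Type VI collagen, the beaded filament around cells, made up 20.6% to 38.0% of collagen TPM. Col6a1 was at 440.2 and 339 TPM in both libraries labelled old MIT-001, 351 and 295 TPM in those labelled old PBS, and 312 and 819 TPM in those labelled young PBS. Col6a2 was at 272 and 226, at 227 and 197 (labelled old PBS), and at 145 and 609 TPM (labelled young PBS). For both genes replicate 2 labelled young PBS was the highest library. Col6a3, whose chain completes the filament, stood at 48.8 and 51.6, at 60.0 and 45.2 (labelled old PBS), and at 30.3 and 73.5 TPM (labelled young PBS). Col6a4 stood at 35.2 and 24.2, at 40.1 and 25.2 (labelled old PBS), and at 17.4 and 64.1 TPM (labelled young PBS). Col6a3, Col6a4 and Col6a6 (3.53 to 8.13 TPM) were each lowest in replicate 1 labelled young PBS.

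Col6a5 differed from its type VI partners. It encodes a further type VI chain that can take the place of the Col6a3 chain, and it lies between Col6a4 and Col6a6 on chromosome 9, from 105856070 to 105962463 on the minus strand (mm10). Its level was 59.5 and 38.5 TPM in both libraries labelled old MIT-001, 10.6 and 10.03 TPM in those labelled old PBS, and 33.7 and 126 TPM in those labelled young PBS. Both libraries labelled old PBS stood below the other 4. The log2 fold change was -2.55 ± 0.59 for old PBS against young PBS (limma, adjusted p 0.211) and 2.11 ± 0.59 for old MIT-001 against old PBS (limma, adjusted p 0.260).

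Col6a5 was called by limma in the comparison of old MIT-001 with old PBS when only those 4 libraries were fitted (adjusted p 0.0396) and without replicate 1 or 2 labelled young PBS (adjusted p 0.0376 and 0.0387). Those fits called 2.16%, 2.17% and 2.26% of all genes. Against young PBS it was called for old PBS without replicate 1 labelled young PBS (log2 fold change -3.49, adjusted p 0.0367), and the value was -1.62 without replicate 2. The fits of old MIT-001 against old PBS used the same 4 libraries of these groups and gave the same log2 fold change, 2.11. They differed only in the estimate of the spread, so they are not separate findings. The share and ratio that follow are given as a description only. The Col6a5 share of type VI TPM was 6.88% and 5.63% in both libraries labelled old MIT-001, 1.52% and 1.74% in those labelled old PBS, and 6.22% and 7.40% in those labelled young PBS. Relative to its neighbour Col6a4, it stood at 1.69 and 1.59, at 0.264 and 0.397 (labelled old PBS), and at 1.94 and 1.96 (labelled young PBS). The surface epithelium, oviduct, stromal fibroblast and macrophage marker sums were likewise lowest in both libraries labelled old PBS. The granulosa and oocyte marker sums were highest there. The part of these cell types in the Col6a5 values was not tested.

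**Figure D4:**
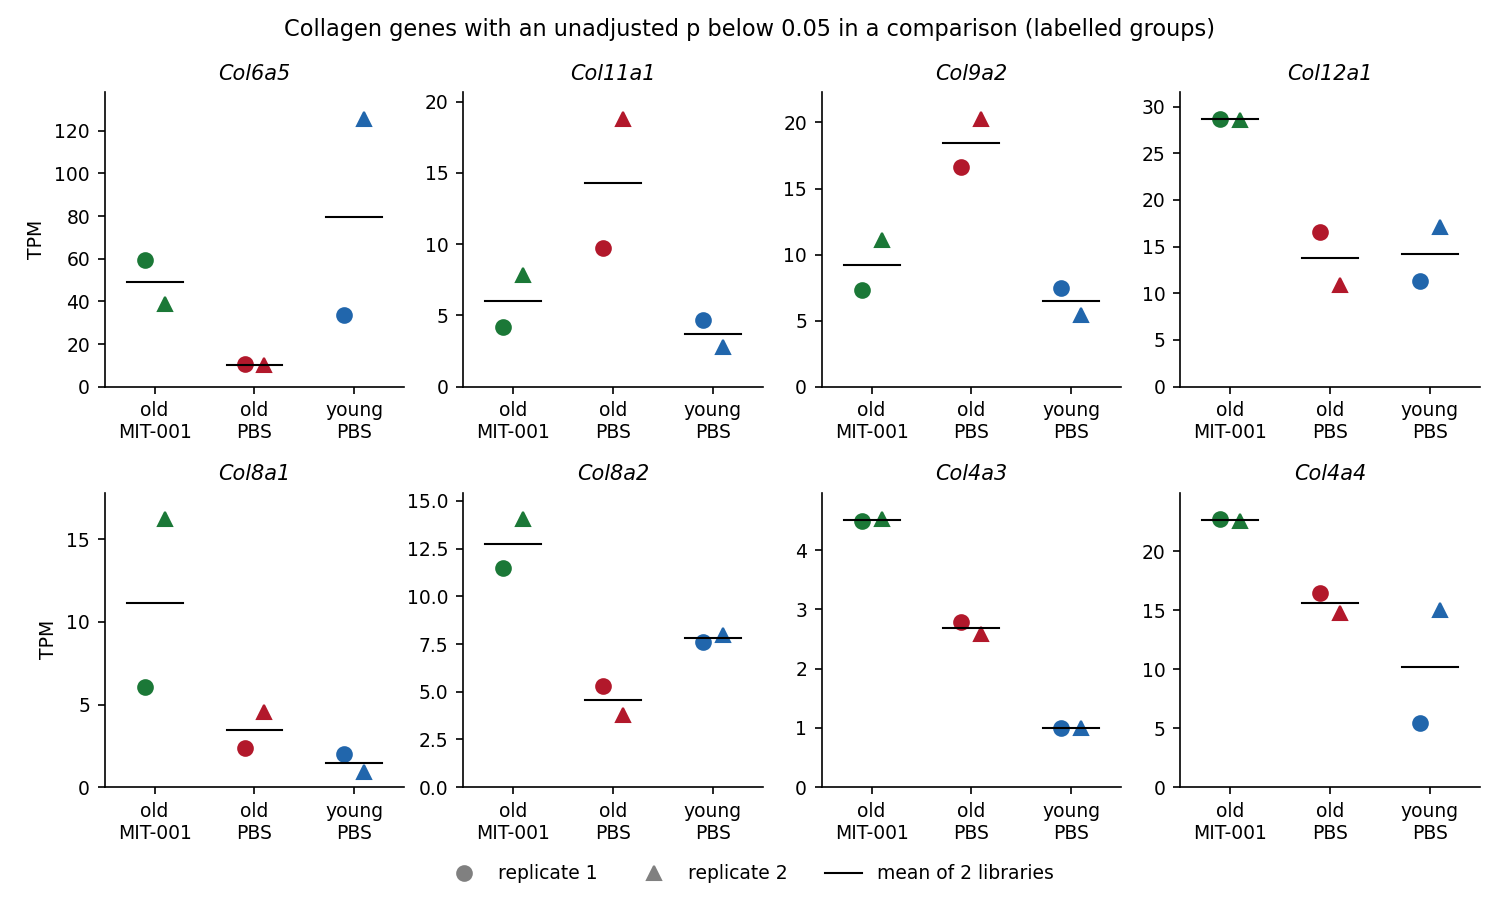
TPM (vertical axes) of the 8 collagen genes with an unadjusted limma p below 0.05 in at least 1 comparison, in the 6 libraries by labelled group. Circles and triangles are replicates 1 and 2 and lines are group means. Col6a5 is lowest, and Col11a1 and Col9a2 are highest, in the libraries labelled old PBS; Col12a1, Col8a1, Col8a2, Col4a3 and Col4a4 are highest in those labelled old MIT-001.

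The short-chain network genes Col8a1 and Col8a2 encode type VIII collagen, known from vessel walls and from a membrane of the cornea. Col8a2 was at 11.5 and 14.0 TPM in both libraries labelled old MIT-001, 5.31 and 3.78 TPM in those labelled old PBS, and 7.59 and 8.00 TPM in those labelled young PBS, with no overlap between groups. Col8a2 had a log2 fold change of 1.32 ± 0.29 for old MIT-001 against old PBS (limma, adjusted p 0.184), the smallest p of a collagen gene in that comparison. Col8a1 was at 6.06 and 16.2, at 2.36 and 4.54 (labelled old PBS), and at 2.04 and 0.896 TPM (labelled young PBS). Its log2 fold change was 1.35 ± 0.54 for old MIT-001 against old PBS (limma, adjusted p 0.408) and 2.20 ± 0.54 against young PBS (limma, adjusted p 0.161). Both libraries labelled old MIT-001 stood above the other 4 for each gene. On mm10, Col8a1 lies on chromosome 16 from 57624256 to 57754737 (minus strand) and Col8a2 on chromosome 4 from 126286794 to 126314330 (plus strand).

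Fibril-associated collagens sit on the surface of fibres and join them to other matrix. Col12a1, of that group, was at 28.7 and 28.6 TPM in both libraries labelled old MIT-001, 16.6 and 10.9 TPM in those labelled old PBS, and 11.3 and 17.1 TPM in those labelled young PBS. The log2 fold change was 1.04 ± 0.31 for old MIT-001 against old PBS and 0.99 ± 0.31 against young PBS (limma, adjusted p 0.284 and 0.186). Col16a1 was at 51.1 and 54.7, at 35.1 and 27.8 (labelled old PBS), and at 32.8 and 57.2 TPM (labelled young PBS). For Col12a1 the libraries labelled old MIT-001 stood above the other 4, while for Col16a1 they overlapped with young PBS.

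Col9a2, a chain of the type IX collagen that coats cartilage fibrils, went the other way. It was at 7.35 and 11.1 TPM in both libraries labelled old MIT-001, 16.6 and 20.3 TPM in those labelled old PBS, and 7.45 and 5.46 TPM in those labelled young PBS. The log2 fold change was 1.39 ± 0.31 for old PBS against young PBS (limma, adjusted p 0.210) and -0.95 ± 0.31 for old MIT-001 against old PBS (limma, adjusted p 0.321). As with Col11a1, both libraries labelled old PBS were above the other 4, which is also the order of the granulosa and oocyte marker sums. The part of these cell types in the levels of both genes was not tested. The partner chain genes Col9a1 and Col9a3 did not pass the filter, with highest values of 0.0181 and 0.825 TPM.

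The multiplexins Col15a1 and Col18a1 encode collagens found at basement membranes. They are counted here in the other class, because the basement membrane class holds type IV only. The end of the type XVIII chain is the source of the angiogenesis inhibitor endostatin. Col15a1 was at 79.8 and 61.7 TPM in both libraries labelled old MIT-001, 40.1 and 41.2 TPM in those labelled old PBS, and 41.2 and 156 TPM in those labelled young PBS. Col18a1 was at 98.9 and 95.6, at 97.1 and 91.4 (labelled old PBS), and at 70.1 and 136 TPM (labelled young PBS). Col26a1 was at 16.9 and 26.0, at 21.3 and 12.5 (labelled old PBS), and at 10.05 and 37.7 TPM (labelled young PBS). All 3 were highest in replicate 2 labelled young PBS.

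Other members were low. Col7a1, of the anchoring fibrils under epithelia, was at 1.78 and 1.75 TPM in both libraries labelled old MIT-001, 1.07 and 0.446 TPM in those labelled old PBS, and 0.570 and 0.898 TPM in those labelled young PBS. The transmembrane collagen genes Col13a1 and Col23a1 ranged from 1.48 to 3.46 TPM and from 2.40 to 5.63 TPM. Col14a1, Col20a1 and Col22a1 ranged from 2.15 to 7.27, from 3.96 to 11.2 and from 0.546 to 3.57 TPM. Col10a1, Col17a1, Col19a1, Col25a1 and Col28a1 did not pass the filter, and the highest value among them was 1.80 TPM.

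Libraries of old PBS and young PBS did not overlap in 8 collagen genes higher and 2 lower in old PBS (22.9% and 5.71% of 35, against 38.1% and 11% of all genes tested). In old MIT-001 against old PBS the counts were 13 higher and 6 lower (37.1% and 17.1%, against 27.2% and 24.2%). Set against young PBS, old MIT-001 had 11 higher and 1 lower (31.4% and 2.86%, against 37.3% and 6.56%). The median log2 fold change of the 35 genes was 0.04, 0.23 and 0.23 in these comparisons, and 0.23, 0.03 and 0.24 over all genes. After each library was centred on its median, the collagen medians were -0.28, 0.14 and -0.19, so the sign in both comparisons with young PBS depended on the scaling; the medians over all genes were then -0.09, -0.06 and -0.17. Quantile normalization gave -0.10, 0.24 and -0.07 for the collagen genes, and 0.02, -0.04 and -0.06 over all genes.

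**Figure D5:**
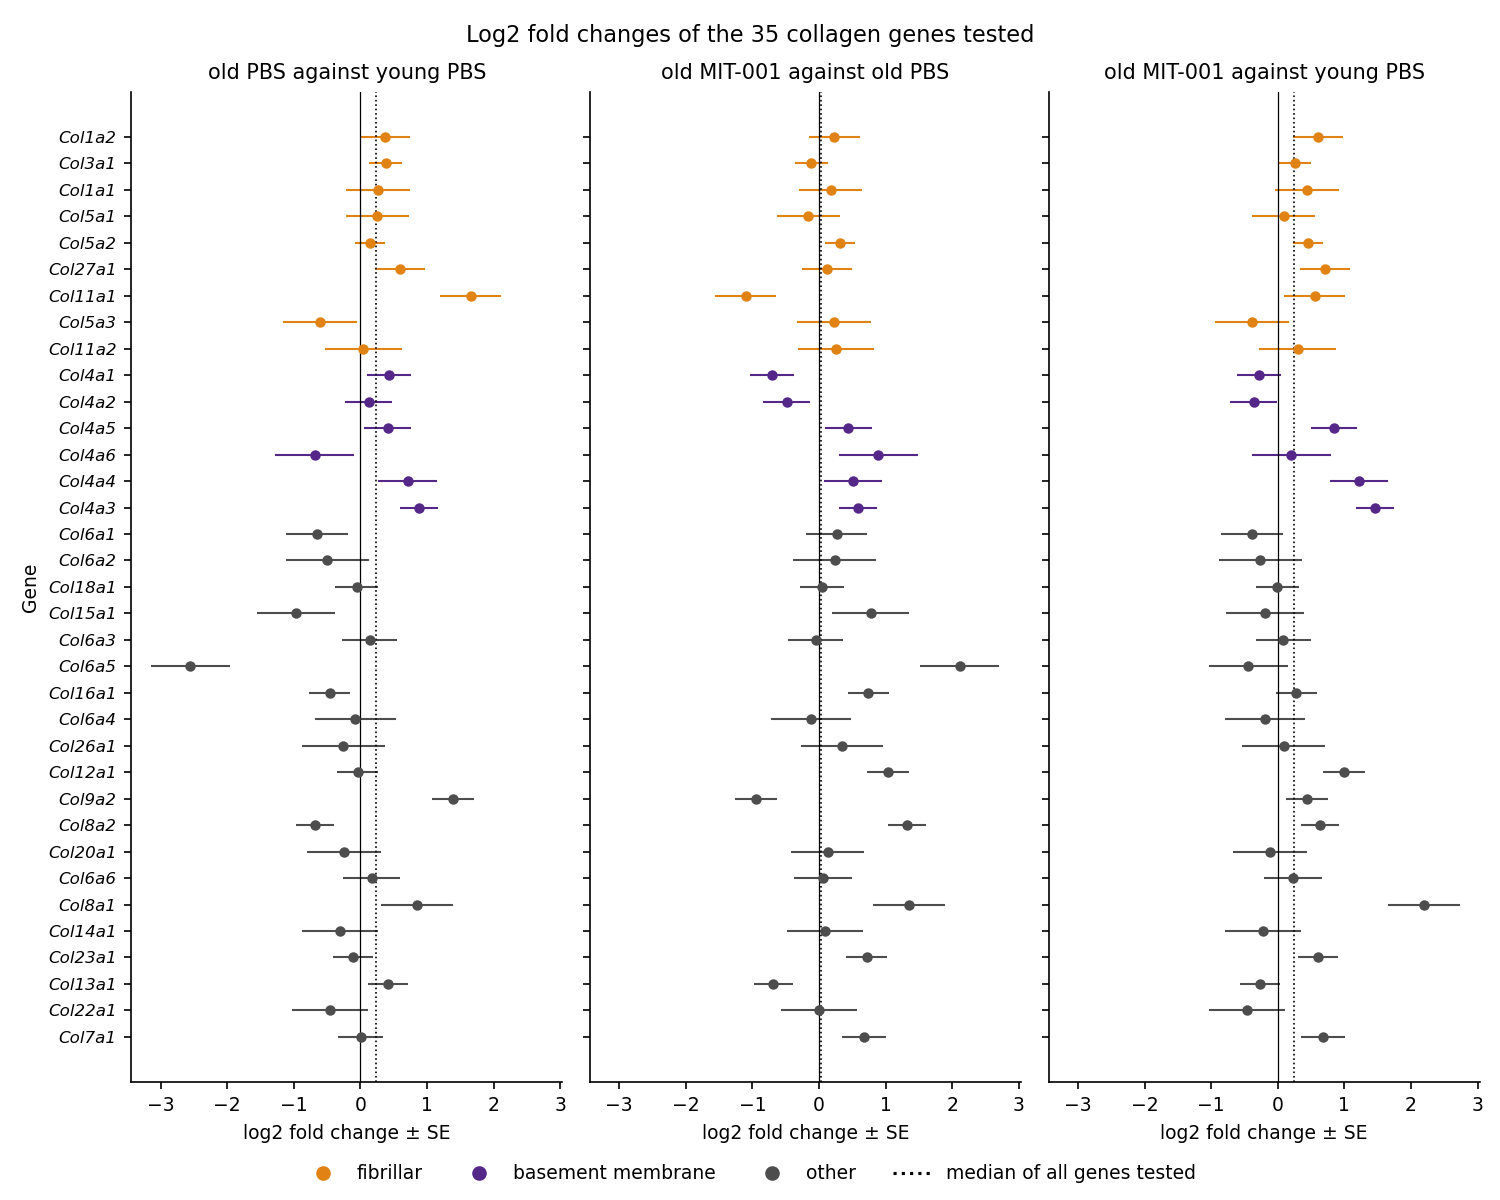
Log2 fold changes with standard errors (horizontal axes, log2(TPM + 1) scale) of the 35 tested collagen genes (rows, by class) in the 3 comparisons, with the median of all genes tested as a dotted line. Col6a5 lies at -2.55 for old PBS against young PBS and at 2.11 for old MIT-001 against old PBS, and none of the genes was called.

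Both comparisons that involve old PBS share its libraries, so opposite values of a gene in them are not independent. Col6a5, Col9a2, Col11a1 and Col8a2 had opposite signs in these comparisons, as the levels above show, whereas Col4a3 and Col8a1 had positive values in both.

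Enzymes that modify and fold collagen chains were described from a list of 18 genes, all tested. No member was called in any comparison. Plod2, which hydroxylates lysines that later form crosslinks, was at 125 and 147 TPM in both libraries labelled old MIT-001, 189.8 and 281 TPM in those labelled old PBS, and 73.3 and 80.1 TPM in those labelled young PBS, with no overlap between groups. Plod2 had a log2 fold change of 1.58 ± 0.25 for old PBS against young PBS (limma, adjusted p 0.155). Colgalt2, which adds galactose to collagen, was at 7.87 and 2.88, at 39.0 and 19.1 (labelled old PBS), and at 4.38 and 4.62 TPM (labelled young PBS), with a log2 fold change of -2.27 ± 0.51 for old MIT-001 against old PBS (limma, adjusted p 0.190). P4ha1, a prolyl hydroxylase subunit that stabilises the helix, had 0.60 ± 0.19 for old PBS against young PBS (limma, adjusted p 0.229), and Fkbp14, a folding isomerase, had 0.73 ± 0.24 for old MIT-001 against young PBS (limma, adjusted p 0.197). The list's median log2 fold change was 0.34 for old PBS against young PBS, -0.26 for old MIT-001 against old PBS and 0.08 with young PBS in its place. Over all genes tested these medians were 0.23, 0.03 and 0.24.

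Of 15 genes of procollagen export and end trimming, 11 were tested and none was called. Pcolce, an enhancer of procollagen cleavage, was at 765 and 731 TPM in both libraries labelled old MIT-001, 1144 and 1004 TPM in those labelled old PBS, and 816 and 2461 TPM in those labelled young PBS. Replicate 2 labelled young PBS was the highest, as for type VI collagen. Adamts2, a procollagen protease, had a log2 fold change of 0.72 ± 0.25 for old PBS against young PBS (limma, adjusted p 0.242), and the export genes Mia3 and Klhl12 had 0.59 and 0.41.

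Among 10 collagen receptor genes 9 were tested and none was called. Itga2, a subunit of a collagen-binding integrin, was at 4.63 and 2.66 TPM in both libraries labelled old MIT-001, 8.77 and 15.0 TPM in those labelled old PBS, and 3.84 and 2.59 TPM in those labelled young PBS (log2 fold change 1.58 ± 0.40 for old PBS against young PBS; limma, adjusted p 0.212). Lair1, an inhibitory collagen receptor of immune cells, was at 2.06 and 2.14, at 0.571 and 0.682 (labelled old PBS), and at 1.71 and 1.79 TPM (labelled young PBS). Ddr2, a receptor kinase for fibrillar collagen, and Itga1 had log2 fold changes of 0.81 ± 0.30 and 0.98 ± 0.34 when old MIT-001 was set against young PBS (limma, adjusted p 0.233 and 0.214).

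Of 20 other basement membrane genes 19 were tested, again with none called. Lama3, a laminin chain gene, had a log2 fold change of 1.68 ± 0.30 for old MIT-001 against young PBS (limma, adjusted p 0.161). Pxdn, the peroxidase that crosslinks type IV collagen, had -0.70 ± 0.20 for old MIT-001 against old PBS (limma, adjusted p 0.267), and Frem1 had 1.25 ± 0.33 for old MIT-001 against young PBS (limma, adjusted p 0.161).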

How the data were processed

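The labels' protocols name TRIzol extraction and a SMARTer mRNA library kit, and the submitters' processing notes name Trimmomatic, HISAT2, StringTie and mm10. Versions, annotation and strand setting: not given in the sources used here. Per the file headers, the deposited TPM columns hold StringTie abundances scaled for length and library. The deposited FPKM columns served as an alternative, and the deposited coverage signal served only to estimate depth. No read counts were used, so precision comes from the spread between libraries.

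Symbols came from a RefSeq table (GRCm38.p6) by Gene ID: 98 rows per library did not match. Coordinates are those of the files. Genes reaching TPM 1 in 2 or more libraries (16473) were fitted as log2(TPM + 1), so fold changes of low genes are understated. The fit was limma 3.58.1 (R 4.3.3) with 1 mean per group and an intensity trend (3 residual and 3.12 prior degrees of freedom). It was two-sided, with Benjamini-Hochberg adjustment over all genes. The fit was also run on simulated data, which gave each gene the same spread in all groups. In these data the young PBS pair differed most, so that run does not test the fit under such unequal spread. Errors are SE for fold changes and SD for TPM.

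The members and lists were chosen with earlier results of these data known. Named were members with a mean TPM of at least 20, the 2 with the smallest p per class and comparison and those with an unadjusted p below 0.05, added after values were seen, and up to 4 genes per list by p. A gene that this rule names is not reported here. Alternatives were the pseudocount, the filter, FPKM, centring, quantile normalization, fewer groups, no trend, a replicate block and each library left out.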

Additional observations from a re-analysis of the deposited data

How the results depend on the processing

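All 21 named log2 fold changes of collagen genes kept their direction under every alternative run, and none of them passed in the reported fit. Changing the filter, fitting fewer groups, dropping the trend or adding the replicate block leaves a fold change as it was. So does leaving out a library of the group not compared. Those runs could not alter a direction, and only the remaining ones could. The genes had also been named by their p in the same data. Of these genes, Col6a5 passed in 4 cases, given with its values in the report. The count of collagen genes called for old MIT-001 against old PBS was 1 (Col6a5) when only the 2 groups were fitted, and 0 to 1 with a library left out. For old PBS against young PBS it was 0 to 5 with a library left out. The count over all genes for old PBS against young PBS was 6. It was 1 with no filter, with no intensity trend and with a replicate block, 15 with median centring, 17 with quantile normalization, 0 with only 2 groups and 0 to 948 with a library left out (948 without replicate 1 and 14 without replicate 2 labelled young PBS). The count over all genes was 3 for old MIT-001 against old PBS. It was 0 with no filter and with the replicate block, 1 with FPKM or median centring, 356 with only 2 groups and 0 to 372 with a library left out (358 and 372 without replicate 1 and 2 labelled young PBS). Under the replicate block the count of collagen genes was 0 in all 3 comparisons. The replicate numbers share no stated animal or day, and deviations of same-numbered libraries correlated at 0.175, 0.239 and 0.00656 over genes, so they were not treated as pairs.

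With a library left out, the fold of summed collagen TPM was 0.918 to 1.097 for old MIT-001 against old PBS and 0.687 to 1.504 for both comparisons with young PBS. For type IV it was 0.624 to 0.787 for old MIT-001 against old PBS, 0.634 to 1.19 against young PBS, and 0.912 to 1.71 for old PBS against young PBS. Fibrillar folds were 1.02 to 1.78 (old MIT-001) and 0.962 to 1.68 (old PBS), and those of the other class 0.516 to 1.47 and 0.412 to 1.17, each against young PBS. FPKM moved no fold by more than the replicate spread. The wide ranges with young PBS come from its 2 unlike libraries. The cause of the other moves was not tested.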
